A study of Mus musculus with 8 samples.

Results

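Transcripts of the inhibitor of apoptosis proteins (IAPs) *Birc2*, *Birc3*, *Birc5*, *Birc6*, *Xiap* and *Naip1*, and of their mitochondrial antagonists *Diablo* and *Htra2*, were followed in AtT20 cells incubated with or without HX630. These 8 genes, of 19751 gene symbols that the array could be matched to, were chosen by their function, and every probe whose RefSeq accession belongs to one of them was kept apart, which gave 13 probes of 39429. AtT20 is a mouse pituitary corticotroph tumor cell line that secretes ACTH. HX630 is a synthetic compound that activates the retinoid X receptors (RXRs). The control group was 4 samples of AtT20 cells incubated without HX630 and the HX630 group was 4 samples incubated with it at 10 μM. Both groups were kept for 48 hr in DMEM with stripped serum, the RNA of each sample was labeled with Cy3 and hybridized to 1 array, and all samples came from the same line, which stands for one tumor only. Nothing in the labels says whether the 4 samples of a group came from separate cultures, so p-values measure the spread between these samples. The control arrays lay on 1 slide and the HX630 arrays on another, so that slide and treatment cannot be told apart.

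IAPs carry baculoviral IAP repeat (BIR) domains. XIAP binds and blocks caspases, among them caspase-9, the initiator of the mitochondrial route to apoptosis, while cIAP1 and cIAP2, the products of *Birc2* and *Birc3*, are ubiquitin ligases that act on TNF receptor and NF-κB signaling. Survivin, the product of *Birc5*, belongs to the chromosomal passenger complex and is made mainly in dividing cells, and Diablo (also called Smac) and HtrA2 leave the mitochondria in apoptosis and displace caspases from XIAP. Apoptosis through these proteins is set largely by binding and release of proteins, which an RNA array does not measure.

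Promoter sequences are shown for *Naip1*, the gene with the called probe, for *Birc5*, the gene with 3 probes, and for *Xiap*, the inhibitor that binds the caspases, a choice made after their values were seen. The sequences are from RefSeq on GRCm38.p6, run 5′ to 3′ on the strand of the gene and reach from 250 bases before the annotated start to 50 after it. Capitals mark matches, on either strand, to AGGTCA (the element bound by RXR and its partners, usually as a repeat), TTTGAA or TTCGAA (the cell cycle gene homology element and a variant of it) and GGACTTTCC (an NF-κB site).
Naip1, chr13:100452815-100453114, minus strand: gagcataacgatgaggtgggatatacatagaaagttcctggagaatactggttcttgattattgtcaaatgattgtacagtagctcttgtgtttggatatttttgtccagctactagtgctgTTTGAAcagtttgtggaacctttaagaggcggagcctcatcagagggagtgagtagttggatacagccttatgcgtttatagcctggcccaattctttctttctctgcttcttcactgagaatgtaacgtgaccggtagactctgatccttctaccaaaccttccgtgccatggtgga
Birc5, chr11:117848987-117849286, plus strand: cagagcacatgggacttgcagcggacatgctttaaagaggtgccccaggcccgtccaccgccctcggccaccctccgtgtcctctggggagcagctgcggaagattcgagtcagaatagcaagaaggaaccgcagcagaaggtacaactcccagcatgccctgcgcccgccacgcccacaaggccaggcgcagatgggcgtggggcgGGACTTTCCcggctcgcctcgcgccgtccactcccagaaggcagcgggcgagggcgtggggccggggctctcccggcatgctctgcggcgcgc
Xiap, first of 3 start sites, chrX:42067586-42067885, plus strand: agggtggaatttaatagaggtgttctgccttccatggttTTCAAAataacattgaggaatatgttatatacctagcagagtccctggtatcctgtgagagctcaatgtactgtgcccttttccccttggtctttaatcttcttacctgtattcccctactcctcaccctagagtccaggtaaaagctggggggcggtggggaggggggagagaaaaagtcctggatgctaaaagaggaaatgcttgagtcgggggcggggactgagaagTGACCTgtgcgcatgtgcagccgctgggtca
Promoters of 7 of the 8 genes were matched, in 10 windows; *Htra2* was not. AGGTCA was found in 1 of the 10 windows, that of *Xiap* above, where it starts at base 20 after the start, and in 16.3% of 32851 mouse promoters of the same length. A direct repeat of 2 such elements with 1 to 5 bases between them was in none of the 10 windows and in 0.0791% of all promoters. TTTGAA was in the windows of *Naip1* and *Xiap* above and in 17.9% of all promoters, and TTCGAA was in no member window and in 1.56% of all. GGACTTTCC was found in the window of *Birc5* only, 43 bases before the start, and in 0.344% of all promoters. In that window it shares 1 base with a GC box, GGGCGG, which was in 6 of the 10 windows and in 35.7% of all promoters, and CCAAT was in 3 of the 10 and in 37.4% of all. A match shows that these letters are present, not that a factor binds there.

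The signal of a probe is given as the log2 of its processed intensity minus the 75th percentile of its array, so that 0 stands for that percentile, and signals of different probes cannot be set against each other. A probe was tested with limma if 4 or more of the 8 arrays showed it well above background, as they did for 28553 probes, all 13 member probes among them. It was called changed at a Benjamini-Hochberg adjusted p below 0.01 over all probes tested together with a fold change above 1.5, which is 0.585 on the log2 scale. By this rule 18.6% of all tested probes were called, 7.46% higher and 11.2% lower with HX630. Higher probes made up 40.1% of the calls, against 49.8% with quantile normalization, 51.6% with scaling to the median and 69.9% with scaling to spike-in controls. The last of these moved the median log2 change of all tested probes by 0.23 from its value of -0.056. The 75th percentile of intensity was 1335 to 1863 on the control arrays and 1803 to 1899 on the HX630 arrays, 69.7% to 73.5% of probes were well above background, no member probe was saturated, and arrays correlated at 0.994 to 0.998 within a group and at 0.978 to 0.984 between groups.

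One of the 13 member probes was called, a probe of *Naip1*, which is 7.69% of them beside 18.6% of all tested probes. At an adjusted p below 0.01 without a fold threshold 4 of the 13 passed (30.8%), beside 45.6% of all, and for 6 of the 13 (46.2%) the groups did not overlap, beside 55.7% of all. The log2 changes of the member probes ran from -0.25 to 0.78 with a median of 0.19, and their median size without sign was 0.21, beside 0.28 over all tested probes. By value, 9 were higher with HX630, beside 44.2% of all tested probes, and 4 lower; the number higher was 10 with quantile normalization, with the percentile over detected probes and with normexp background correction, 11 with the median and 12 with spike-in scaling. The 9 IAP probes had a median of 0.21 and the 4 antagonist probes one of 0.088. In these bulk samples, a changed share of cells with a transcript and a changed amount of it in each cell cannot be told apart.

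**Figure D1:**
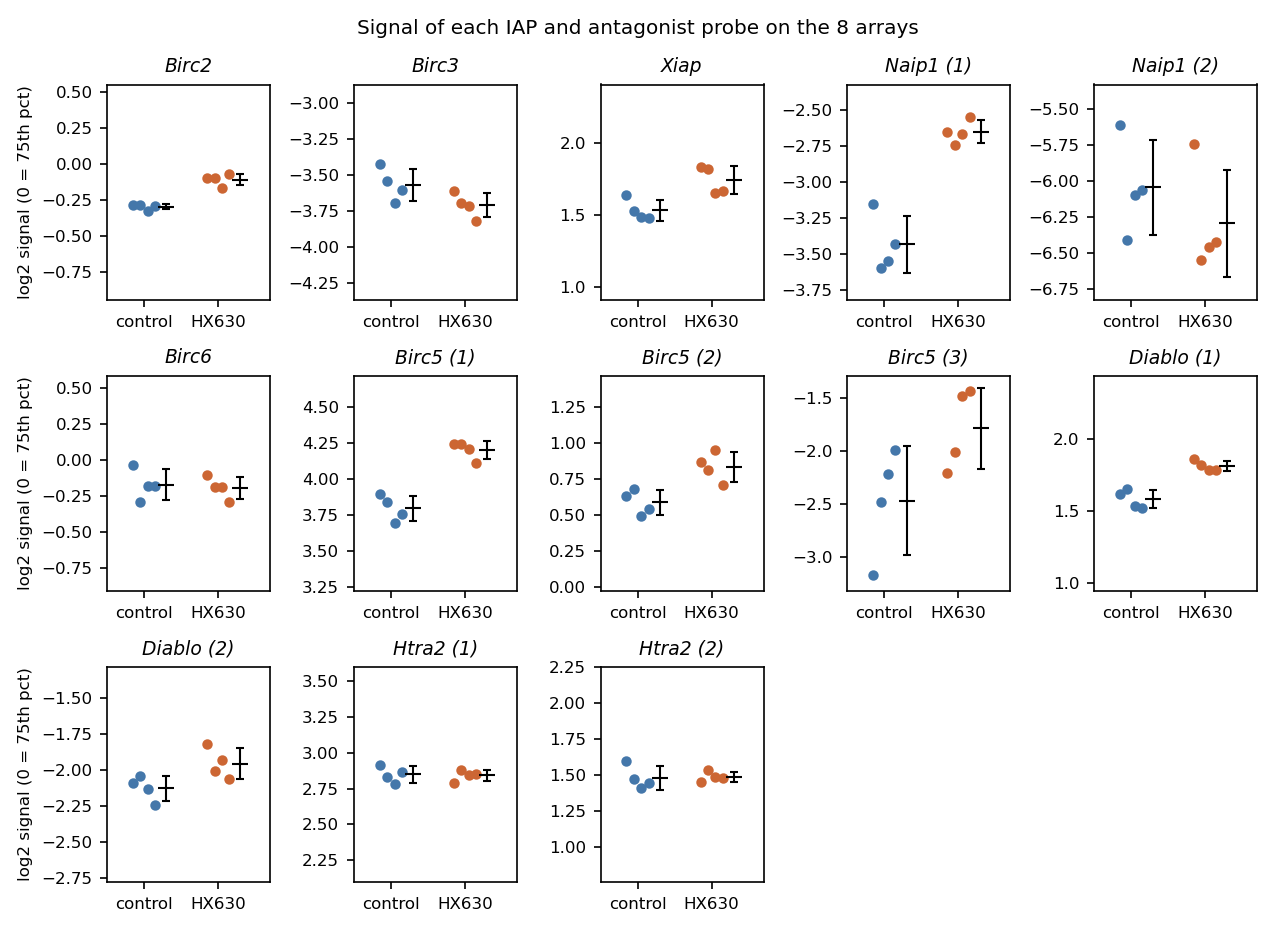
Each panel plots the signal of 1 probe (y axis, log2 processed signal with 0 at the array's 75th percentile) on the 4 control arrays (blue) and the 4 HX630 arrays (orange), with the mean and SD of each group in black; y axes differ between panels. The groups do not overlap in 6 panels, and the called probe, Naip1 (1), rises from about -3.43 to -2.65.

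Among the inhibitors that act on caspases and on NF-κB signaling, the differences were small. *Birc2*, which encodes cIAP1, had signals of -0.28, -0.28, -0.32 and -0.29 on the control arrays and of -0.098, -0.095, -0.16 and -0.071 on the HX630 arrays. Every HX630 array was thus above every control array, with one of the tightest spreads of all members, but the log2 fold change was 0.19 (SE 0.033, limma adjusted p = 0.00171), a fold of 1.14, and the probe was not called. *Birc3*, which encodes cIAP2 and is the next coding gene to *Birc2* on chromosome 9, was dim and had -3.57 ± 0.11 (SD, n = 4) in controls and -3.71 ± 0.083 (SD, n = 4) with HX630. The groups overlapped, the difference of -0.14 did not pass (adjusted p = 0.103, limma), and it was 0.089 with spike-in scaling.

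*Xiap*, the inhibitor that binds caspases directly, gave 1.64, 1.53, 1.49 and 1.48 on the control arrays and 1.83, 1.82, 1.65 and 1.66 on the HX630 arrays. The HX630 arrays were all higher, the lowest of them by a narrow margin over the highest control. Its log2 fold change of 0.21 (SE 0.061, limma adjusted p = 0.018, 95% interval 0.070 to 0.35) did not pass. Under the fold threshold, it passed the adjusted p with quantile normalization (0.25, adjusted p = 0.00707, limma), the median (0.30, adjusted p = 4.9e-04, limma) and spike-ins (0.44, adjusted p = 1.38e-04, limma). With the percentile over detected probes (adjusted p = 0.0124, limma) and normexp correction (adjusted p = 0.0686, limma) *Xiap* did not pass. *Birc6*, which encodes the very large IAP BRUCE, was at -0.17 ± 0.11 (SD, n = 4) in controls and -0.19 ± 0.077 (SD, n = 4) with HX630, and its groups overlapped almost fully. The difference of -0.02 (adjusted p = 0.769, limma) was 0.064 with scaling to the median and 0.21 with spike-in scaling.

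*Naip1*, known as a sensor protein of the NLRC4 inflammasome that also carries BIR domains, held the called probe. It read -3.15, -3.60, -3.55 and -3.43 on the control arrays and -2.65, -2.74, -2.67 and -2.55 on the HX630 arrays, and its intensity rose from 112 to 159 on the control arrays to 276 to 325 on the HX630 arrays. The groups lay well apart, and the log2 fold change was 0.78 (SE 0.099, limma adjusted p = 2.86e-04), a fold of 1.72 with a 95% interval of 1.46 to 2.01. It kept the call in each of the 21 alternatives that were tried, with log2 changes from 0.59 to 1.01. The second probe of *Naip1*, made for the same accession, gave no such difference. It read -5.61, -6.41, -6.10 and -6.06 in controls and -5.74, -6.55, -6.46 and -6.42 with HX630, and the groups overlapped. Its log2 difference was -0.25 (SE 0.22, limma adjusted p = 0.368), and it was -0.60 after normexp correction, -0.091 with quantile normalization, -0.16 with the median, -0.017 with spike-ins, -0.43 without HX630 replicate 1, -0.16 without HX630 replicate 2 and -0.10 without control replicate 1. This probe is close to the background: it was well above it on 3 of the 4 control arrays and all 4 HX630 arrays, at intensities of at most 33.7 over the 8 arrays against local backgrounds of 19 to 24. Between the brighter and the dimmer probe the difference in signal was 2.61 in controls and 3.64 with HX630, a change of 1.03 (exact two-sided permutation test, p = 0.0286, the smallest that 70 regroupings allow; 0.0857 after adjustment over the 6 pairs of probes of one gene).

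*Naip1* is one of several near-identical *Naip* genes that lie side by side on chromosome 13, with no other coding gene between it and *Naip6*. *Naip6* rose from -1.84 ± 0.14 (SD, n = 4) to -0.65 ± 0.060 (SD, n = 4), from -1.64, -1.97, -1.89 and -1.84 on the control arrays to -0.65, -0.61, -0.73 and -0.59 on the HX630 arrays. No array of one group came near the other, and the log2 fold change was 1.19 (SE 0.073, limma adjusted p = 4.99e-06). The other genes with BIR domains were *Naip2* at 0.13 (adjusted p = 0.0211, limma), *Naip5* at 0.07 (adjusted p = 0.764, limma) and *Birc7*, an IAP also called livin, at 0.53 (adjusted p = 0.0366, limma). *Birc7* was called with quantile normalization (0.64), scaling to the median (0.62) or spike-ins (0.76) and without control replicate 1 (0.69), but was at 0.090 (adjusted p = 0.716, limma) after normexp background correction. Which of the *Naip* transcripts each probe binds was not tested, because probe sequences were not used here, and the signals of *Naip1* and *Naip6* are uncertain for that reason.

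*Birc5*, the gene of survivin, was higher by value with all 3 of its probes, and none was called. The brightest probe gave 3.90, 3.84, 3.70 and 3.76 on the control arrays and 4.24, 4.25, 4.21 and 4.11 on the HX630 arrays. All HX630 arrays lay above all controls, with a log2 fold change of 0.41 (SE 0.055, limma adjusted p = 4.15e-04), a fold of 1.33. With spike-in scaling it was 0.64 and was called (adjusted p = 1.14e-05, limma). The probe for a second transcript variant read 0.63, 0.68, 0.49 and 0.54 in controls and 0.87, 0.81, 0.95 and 0.71 with HX630. These groups did not overlap either, and the change of 0.25 (SE 0.065, limma adjusted p = 0.0123) did not pass. Under the fold threshold, it passed the adjusted p in limma with quantile normalization (0.0089), the median (0.0033), the percentile over detected probes (0.0071), spike-ins (1.47e-04) and normexp correction (0.00944). Without control replicate 1 it did not (adjusted p = 0.0181, limma). The third probe, whose accession is that of the first, read -3.17, -2.48, -2.22 and -1.99 in controls and -2.21, -2.01, -1.49 and -1.44 with HX630. Its arrays were spread widely in both groups and overlapped, and the difference of 0.68 (SE 0.28, limma adjusted p = 0.0717) did not pass. Without control replicate 1, the lowest of the 8 arrays, it was 0.45. Between the first and the second probe the change differed by 0.16 (exact two-sided permutation test, p = 0.0286; 0.0857 after adjustment over the 6 pairs).

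**Figure D2:**
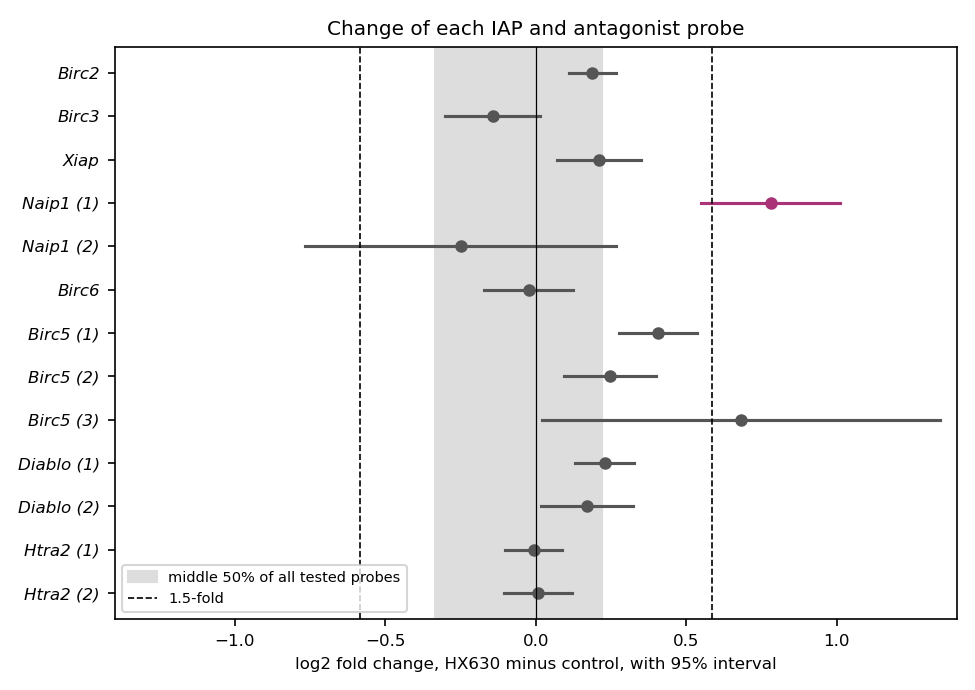
The log2 fold change of each member probe, HX630 minus control (x axis), with its 95% interval from limma; the colored probe is called, the dashed lines mark a 1.5-fold change and the grey band holds the middle 50% of all tested probes. Only Naip1 (1) is called, at 0.78, the interval of Birc5 (3) runs from 0.022 to 1.34, and both Htra2 probes sit at about 0.

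The genes that survivin works with differed in the same direction by value. In the chromosomal passenger complex, *Incenp*, which anchors it, had a log2 difference of 0.31 (adjusted p = 2.48e-04, limma) and *Cdca8*, the borealin gene, one of 0.29 (adjusted p = 9.77e-04, limma), both under the fold threshold. The probe of *Aurkb*, the kinase of the complex, was not well above background on any array and was not tested. Of 10 other genes of G2 and mitosis, each read by its brightest probe, 10 were higher by value, beside 44.2% of all tested probes. Of these, 8 passed the adjusted p alone, beside 20.2% that passed it and were higher among all. None of the 10 was called, and their median was 0.30 beside -0.056 for all tested probes. The dimmer probes of *Ccnb1*, named after the values were seen, were lower at -0.14 (adjusted p = 0.0636, limma) and -0.16 (adjusted p = 0.0417, limma). *Ccnb2*, a mitotic cyclin, was nearest to the threshold with 0.58 (adjusted p = 3.68e-05, limma), followed by the mitotic kinase gene *Plk1* with 0.42 (adjusted p = 1.69e-04, limma) and the cyclin gene *Ccna2* with 0.39 (adjusted p = 2.83e-05, limma). With spike-in scaling 3 of the 10 were called higher, beside 15.2% of all tested probes, and *Ccnb2* was called with each of the other scalings as well. The part of the share of dividing cells in the difference of *Birc5* was not tested.

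Of the antagonists, *Diablo* was slightly higher with HX630 and *Htra2* was level. The brighter *Diablo* probe gave 1.62, 1.66, 1.53 and 1.52 on the control arrays and 1.86, 1.82, 1.79 and 1.79 on the HX630 arrays. The groups did not overlap, with a log2 fold change of 0.23 (SE 0.042, limma adjusted p = 0.00216), a fold of 1.17 that was not called. The dimmer probe of *Diablo* had -2.13 ± 0.086 (SD, n = 4) in controls and -1.96 ± 0.11 (SD, n = 4) with HX630, with overlapping groups, and its difference of 0.17 (adjusted p = 0.0577, limma) did not pass. Under the fold threshold, it passed the adjusted p with the median (0.26, adjusted p = 0.00685, limma) and spike-ins (0.40, adjusted p = 1.94e-04, limma). With quantile normalization (0.22, adjusted p = 0.0172, limma) it did not.

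*Htra2* encodes a serine protease of the mitochondria that binds XIAP once released. Its brighter probe read 2.92, 2.83, 2.78 and 2.86 in controls and 2.79, 2.88, 2.84 and 2.85 with HX630. The other probe read 1.60, 1.47, 1.41 and 1.45 in controls and 1.45, 1.54, 1.49 and 1.48 with HX630. The arrays of both groups were interleaved for both probes. Their log2 differences were -0.0069 (adjusted p = 0.897, limma) and 0.0067 (adjusted p = 0.915, limma), with 95% intervals in fold of 0.932 to 1.06 and 0.929 to 1.09. The first of these differences was above 0 under quantile, median, detected-probe and spike-in scaling and after normexp background correction, at 0.011 to 0.23. Only 1.34% and 1.31% of all tested probes had a smaller difference in size.

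Genes named beside *Htra2* for binding or processing its product were also little different. Of *Hax1*, *Parl*, *Pink1* and *Park7*, 0 of 4 were called, beside 18.6% of all tested probes. By value 3 were lower and 1 was higher, beside 44.2% of all tested probes that were higher. The number lower was 2 with quantile and 0 with spike-in scaling. *Park7*, a mitochondrial stress protein, had -0.19 (adjusted p = 0.00636, limma), *Hax1*, an HtrA2 partner, -0.18 (adjusted p = 0.00256, limma) and the kinase gene *Pink1* -0.14 (adjusted p = 0.00495, limma). Of 6 further genes of XIAP antagonists or mitochondrial proteins released in apoptosis, each read by its brightest probe, *Endog*, a mitochondrial nuclease, was the only gene called, beside 18.6% of all tested probes. It fell from 2.05, 2.05, 2.08 and 2.03 on the control arrays to 1.32, 1.27, 1.25 and 1.27 on the HX630 arrays. The groups were far apart, with a log2 fold change of -0.78 (SE 0.031, limma adjusted p = 6.23e-07), and with spike-in scaling it was -0.54 and was not called. Among the same 6 genes, 5 were lower by value, or 4 with quantile and 2 with spike-in scaling. *Gspt1*, named after the values were seen, was counted as lower by its brightest probe, at -0.094 (adjusted p = 0.0652, limma). Its other probe was higher, at 0.33 (adjusted p = 1.84e-04, limma), under the fold threshold. *Cycs*, which encodes cytochrome c and was picked after its value was seen, had -0.42 (adjusted p = 2.6e-05, limma).

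*Xaf1*, whose product binds XIAP and opposes it, had 2 probes, and it too was looked at after the values were seen. The brighter was at -0.16 (adjusted p = 0.643, limma) and was well above background on 1 control array and 3 HX630 arrays. The other passed the background on all 4 HX630 arrays and on 0 control arrays. Each control array was then given the higher of its own signal and the lowest signal among probes well above background. With this, the probe was 1.88-fold higher with HX630. That lowest signal is not a detection limit, so the value is not a lower bound. The probe was called, but it entered the test through the HX630 arrays alone, against control signals within the background, so that its p is not given. After normexp correction its log2 difference was 0.097 (adjusted p = 0.822, limma).

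The gene of the initiator caspase that XIAP binds changed more than the inhibitor. *Casp9* rose from 0.12, 0.022, 0.059 and 0.069 on the control arrays to 0.85, 0.85, 0.75 and 0.79 on the HX630 arrays. The gap between the groups was many times the spread within them, with a log2 fold change of 0.74 (SE 0.038, limma adjusted p = 2.1e-06), and the call held under each of the 21 alternatives. *Apaf1*, the scaffold that activates caspase-9, had -0.04 (adjusted p = 0.649, limma), a sign that turned with quantile, median and spike-in scaling.

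The change of each of 3 partners against *Xiap* was read within each array, which takes the scaling between arrays out of the comparison. With HX630 the log2 difference from *Xiap* moved by 0.53 for *Casp9*, so that this transcript gained on *Xiap* by 1.45-fold. For the brighter *Htra2* probe, itself level at -0.0069, it moved by -0.22, and for the brighter *Diablo* probe by 0.019. The groups did not overlap for *Casp9* and *Htra2* (exact two-sided permutation test, p = 0.0286 each, 0.0429 after adjustment over the 3 ratios), and overlapped for *Diablo* (exact permutation p = 0.8). The ratios were chosen after the values of the genes were known, and the adjustment does not cover that choice.

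**Figure D3:**
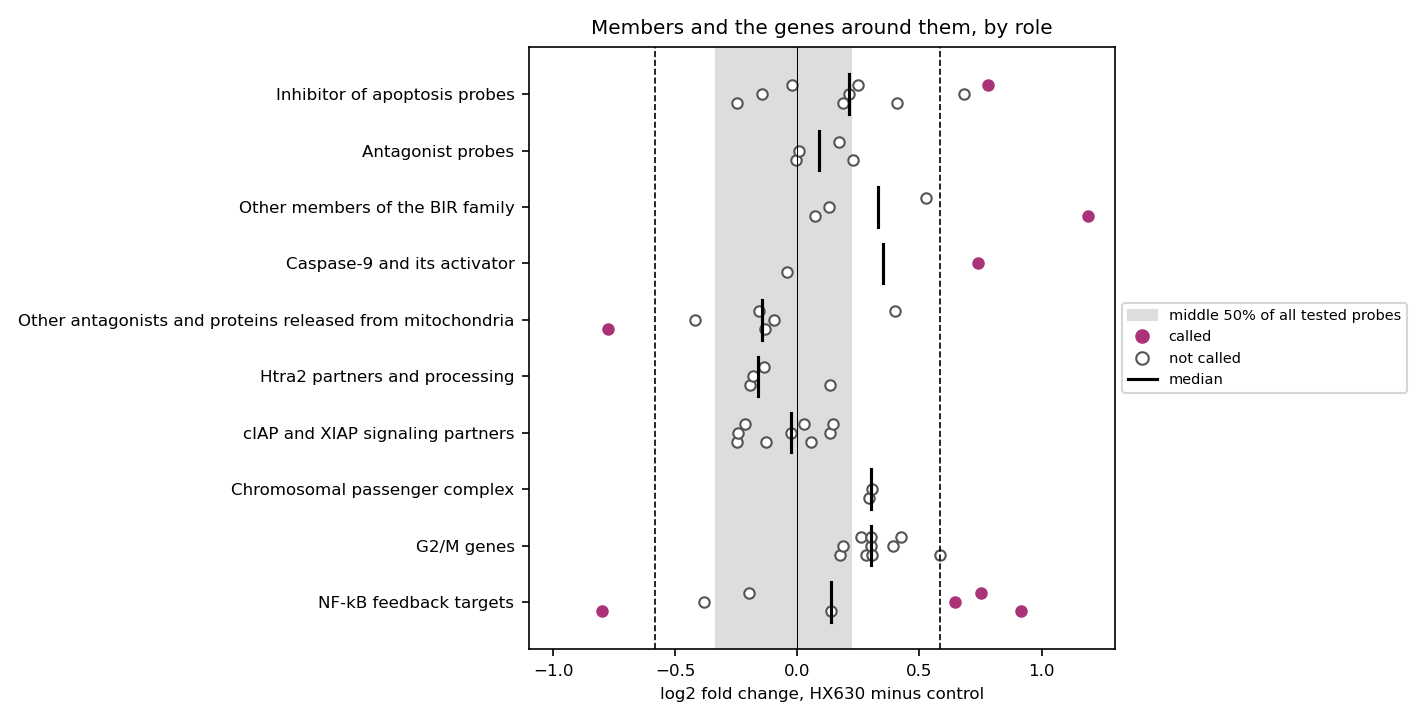
Log2 fold change with HX630 (x axis) of the member probes, by role, and of 44 tested genes of 8 lists around them, each gene by its brightest probe; filled points are called, black bars are medians, dashed lines mark 1.5-fold and the grey band holds the middle 50% of all tested probes. Casp9 is at 0.74, Naip6 at 1.19, and the signaling partners of cIAPs and XIAP stay between -0.25 and 0.15.

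Of 47 genes in the 8 lists around the members, 44 were tested and 7 were called (15.9%, beside 18.6% of all tested probes), 5 higher and 2 lower. With spike-in scaling 9 were called, all higher. In that setting 15.2% of all tested probes were called higher, and higher probes made up 69.9% of all calls. Signaling partners of the cIAPs and XIAP, which include the TRAF adaptors, RIPK1, NIK and the linear ubiquitin ligase complex, gave 0 calls in 9, with a median of -0.03 that was 0.059 with the median scaling and 0.20 with spike-ins. The lowest by value were *Rnf31*, the catalytic subunit of the linear ubiquitin ligase, at -0.25 (adjusted p = 0.00195, limma), *Rbck1*, another subunit of it, at -0.24 (adjusted p = 2.12e-04, limma), and *Tab1*, which links XIAP to TAK1, at -0.22 (adjusted p = 4.15e-04, limma). These differences were -0.014, -0.012 and 0.015 with spike-in scaling.

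The called genes among those that NF-κB itself induces changed in both directions, while *Birc3*, which is also known as such a target, did not pass. *Nfkbia*, the gene of the inhibitor IκBα, rose from 3.42, 3.43, 3.44 and 3.49 on the control arrays to 4.31, 4.38, 4.39 and 4.37 on the HX630 arrays. The groups did not overlap, and the log2 fold change was 0.92 (SE 0.035, limma adjusted p = 5.4e-07). *Nfkbie*, which encodes a related inhibitor, rose by 0.75 (SE 0.12, limma adjusted p = 8.63e-04) and *Tnfaip3*, the gene of the deubiquitinase A20, by 0.64 (SE 0.067, limma adjusted p = 9.52e-05). The call of *Tnfaip3* was lost with normexp correction, at 0.57. *Nfkb2*, which encodes the p100 precursor, fell by 0.80 (SE 0.087, limma adjusted p = 1.20e-04), and by 0.57 with spike-in scaling, where it was not called. Of the 9 genes in this list, 7 were tested, with 3 called higher and 1 lower, beside 7.46% and 11.2% of all tested probes. The rest of the tested genes, *Nfkb1* at -0.38, *Relb* at 0.14 and *Ccl2* at -0.20 by their brightest probes, were not called. *Icam1* and *Cxcl1* were not well above background on any array.

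Marker genes were read to check the cells. All 6 corticotroph markers were well above background on all 8 arrays, *Pomc* and *Tbx19* among them. Of these, *Crhr1*, a receptor for CRH, rose by 1.11 (adjusted p = 5.12e-07, limma), the transcription factor gene *Neurod1* rose by 0.72 (adjusted p = 1.43e-04, limma), and *Pcsk1*, which encodes a protease that cuts POMC, fell by 2.06 (adjusted p = 1.26e-07, limma). The other markers were lower under the fold threshold, so that 4 of the 6 were lower. *Pomc* was at -0.45 (adjusted p = 0.00241, limma), *Tbx19* at -0.37 (adjusted p = 5.06e-04, limma) and *Pitx1* at -0.32 (adjusted p = 4.07e-04, limma). In units of the 75th percentile, the corticotroph markers summed to 301 to 376 on the control arrays and to 218 to 228 on the HX630 arrays. Of 6 leukocyte markers, 5 had a probe and 4 were tested. These 4, *Ptprc*, *Csf1r*, *Itgam* and *Cd14*, were well above background on all 8 arrays, while *Lyz2* was not so on any array. The brightest probe of *Csf1r* was called lower at -0.72 (adjusted p = 6.48e-05, limma), or -0.49 and not called with spike-ins, while its other probes were at -0.31 and -0.15 and not called, and *Ptprc* was at -0.45 (adjusted p = 6.59e-04, limma), under the fold threshold. The summed signal of the leukocyte markers, in units of the 75th percentile, was 5.40 to 7.53 on the control arrays and 5.22 to 7.30 on the HX630 arrays, a sum made mostly by 1 probe of *Itgam*, whose signal was 2.56 and 2.55. Markers of endothelial and stromal cells summed to 0.158 to 0.195 in controls and 0.112 to 0.127 with HX630, with 3 of 5 tested. *Pecam1* and *Col3a1* were well above background on all 8 arrays and *Col1a1* on 2 control and 4 HX630 arrays, while *Cdh5* and *Pdgfrb* were not above it. *Pecam1* was called lower among them at -0.59 (adjusted p = 4.99e-05, limma), just past the fold threshold, and lost the call with each of the other scalings. For the other pituitary hormone cells 4 of 7 were tested, and the sums were 0.330 to 0.498 and 0.317 to 0.372. *Gh*, *Lhb* and *Nr5a1* were well above background on all 8 arrays and *Pou1f1* on 3 control and 4 HX630 arrays. *Fshb* was so on 2 control arrays and 1 HX630 array, and *Prl* and *Tshb* were not above background. *Gh* was called lower there at -0.79 (adjusted p = 6.06e-04, limma), or -0.56 and not called with spike-ins. The part of such cells in the member results was not tested.

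**Figure D4:**
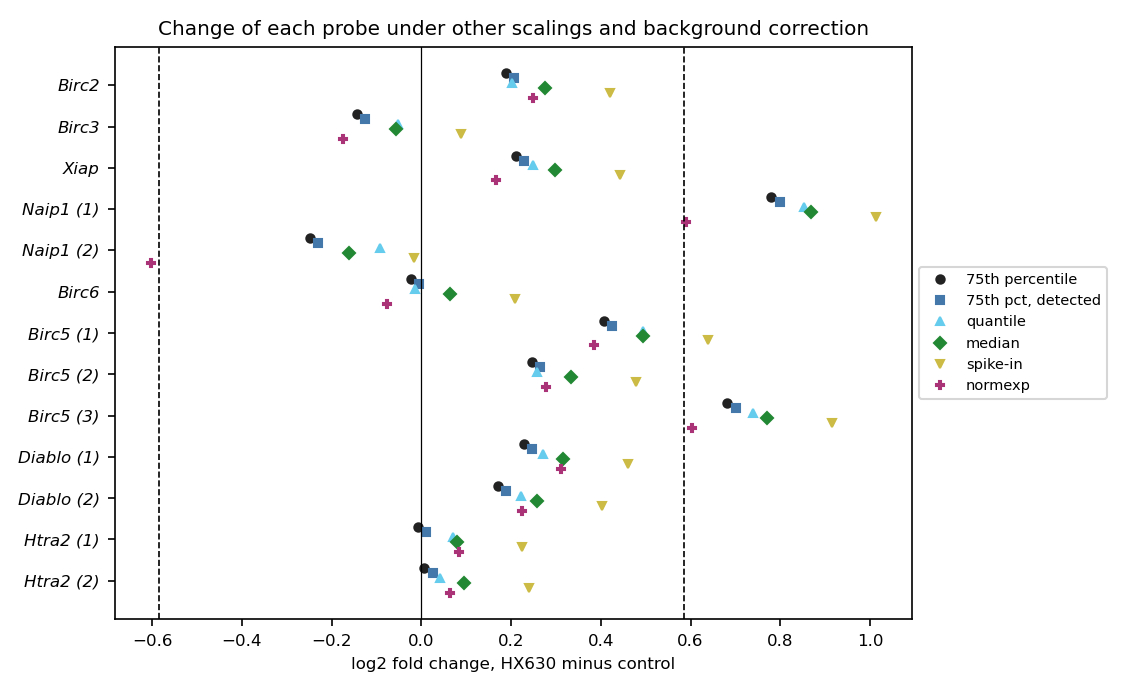
Log2 fold change with HX630 (x axis) of each member probe under 5 settings besides the main 75th percentile, each setting with its own symbol; dashed lines mark 1.5-fold. Naip1 (1) is past 1.5-fold with every symbol, Birc5 (1) with spike-in scaling alone, and Birc3, Birc6 and Htra2 (1) change sign between symbols.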

How the data were processed

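Gene expression in 4 control and 4 HX630 samples was measured with 1-color Agilent mouse arrays. The scanner files deposited by the authors come from Feature Extraction 10.7.3.1, and their processed signal is an intensity corrected for background but not scaled between arrays. A deposited table of log2 values, made by the authors and scaled to the 75th percentile of each array, served as an alternative. Of 44397 spots, 1377 control spots were dropped, as were those with an outlier mark. Each remaining intensity was converted to log2, the 75th percentile of its array was subtracted, and replicate spots of a probe were averaged. The groups were compared in R 4.3.3 with limma 3.58.1 (lmFit and eBayes, no replicate block), with Benjamini-Hochberg adjustment over 28553 probes. The code was tested on simulated data.

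Probes were named by RefSeq accession. The files use an older genome build than the promoter table, so coordinates are given for its promoters only. Every member probe is named, and in each list every called gene, or else up to 3 tested genes with the largest differences; other names are stated as chosen after the values were seen or complete a short list. The members and lists were chosen with earlier results of these data known. Of the genes first put in the lists, 2 are not reported here and were left out of every count. The alternatives were other scalings, background correction, filters, tests, thresholds, the replicate block and each array left out. The number of arrays limits the precision. PCR, reporter, protein and animal experiments are not analysed here.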

Additional observations from a re-analysis of the deposited data

Results flagged for a closer look

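In 5 of 62 sets of 4 arrays that were examined, 1 array stood apart from the other 3 by more than Dixon's 95% critical value for 4 samples, which chance gives in about 1 of 20 sets. For the dimmer *Naip1* probe, HX630 replicate 1 was at -5.74, above a mean of -6.48 for the other HX630 arrays. *Rnf31* was at 1.25 on control replicate 1, below a mean of 1.35 on the other controls. *Rbck1* was at 4.39 on HX630 replicate 3, beside a mean of 4.37. *Plk1* was at 2.75 on control replicate 2, beside 2.61, and *Nfkb2* was at 0.96 on HX630 replicate 4, beside 0.71.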

How the results depend on the processing

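Slide and treatment cannot be told apart, members near the background are read with little precision, and the causes of the changes below were not tested. One member probe was called in 20 of 23 alternatives; there were 2 with spike-in scaling, where the brightest *Birc5* probe joined, 4 without the fold threshold and 2 with the replicate block, where the third *Birc5* probe joined with an unchanged difference of 0.68 (adjusted p = 0.00269, limma). Without the fold threshold 13009 probes over all and 26 genes of the lists passed. The methods' t-test called 5238 probes at its own threshold and 4865 after Benjamini-Hochberg adjustment, beside 5316 with limma, and normexp correction gave 4262. Replicate numbers were not taken as a pairing: deviations of same-numbered arrays correlated at 0.523, -0.0093, 0.243 and 0.381, of which the second is not over 0.1, and the labels name nothing that same-numbered arrays share. That 3 of 4 HX630 arrays correlated best with their own number is a hint from the data, and with the replicate block 5556 probes were called. Of 922 values for single genes, 28 changed sign, 13 lost a call, 15 gained one and 866 kept both. The brighter *Htra2* probe turned to 0.072 with quantile normalization, 0.081 with the median, 0.011 with the 75th percentile over detected probes, 0.23 with spike-ins and 0.085 with normexp, and ran from -0.030 to 0.016 with 1 array left out, while the other *Htra2* probe then ran from -0.018 to 0.047. *Birc6* turned to 0.064 with the median and 0.21 with spike-ins, and ran from -0.064 to 0.022 with 1 array left out. *Apaf1* turned to 0.0069 with quantile normalization, 0.044 with the median and 0.19 with spike-ins, and ran from -0.086 to 0.015 with 1 array left out, as *Naip5* did from -0.026 to 0.26. *Hax1* turned to 0.010 with quantile normalization. With spike-ins, *Birc3* turned to 0.089, *Park7* to 0.039, *Hax1* to 0.048, *Pink1* to 0.094 and *Tab1* to 0.015. With 1 array left out, the called member count stayed at 1, the count over all probes ran from 4873 to 5448 and that of the lists from 7 to 9, and the called *Naip1* probe from 0.73 to 0.87. The dimmer *Naip1* probe was not tested when all 8 arrays had to be well above background.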
